A study of Mus musculus with 8 samples.

Results

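The genes for mitochondrial ribosomal proteins were followed in livers of mice kept on a low-fat or a high-fat diet, some of which also drank arsenite. The family was chosen with earlier results of these data known, and its clusters were then taken by name alone. Every transcript cluster, the feature that stands for a gene on this array, was taken whose platform gene symbol starts with Mrpl or Mrps and a digit. This gave 86 of the 35556 clusters of the array, 54 of the large subunit (Mrpl) and 32 of the small subunit (Mrps). The 85 clusters with 1 symbol stood for 77 genes, 48 large and 29 small, and 8 genes had 2 clusters each. The remaining cluster carries several symbols and was counted but not named. No filter on low signal was set, so all 86 entered every test, which ran over the 23410 clusters that have a gene symbol.

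The study used male C57Bl/6J mice, whose age the labels do not state. The HFD+As group received a high-fat diet with 42% of calories from fat and deionized water to which sodium arsenite had been added (3 mg iAs/L, iAs being inorganic arsenic). HFD mice had the same diet with plain deionized water, LFD+As mice had a low-fat diet (13% of calories) with that arsenite dose, and LFD mice had the low-fat diet with plain deionized water. The protocols state 10 weeks of exposure and the source label 90 days. Each group held 10 mice, and liver RNA of 5 mice was pooled in equal amounts for each of the 2 arrays per group (replicate 1 and replicate 2), so every p-value below measures the spread between such pools.

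Mammalian mitochondria keep their own ribosome, which translates the few respiratory chain and ATP synthase subunits that mitochondrial DNA encodes. Its ribosomal RNAs come from mitochondrial DNA, whereas all of its proteins are encoded in the nucleus, made in the cytosol and imported. The large subunit holds the peptidyl transferase centre and the exit tunnel, and the small subunit decodes the messenger RNA. The symbols do not follow the structure in every case. In mammalian structures, Mrps30 and Mrps18a lie in the large subunit, and Mrps36 is known as a component of the oxoglutarate dehydrogenase complex of the citric acid cycle. The counts by subunit below follow the symbols.

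Promoters of genes for mitochondrial proteins are known for short GC-rich elements bound by ETS factors such as GABP, by NRF1 and by YY1. RefSeq promoters (GRCm38.p6, from 250 bases before to 50 bases after the start) were at hand for 68 of the member genes. The ETS letters CCGGAAG, searched on both strands, occurred in 25 of these 68 (36.8%), against 9.93% of the promoters of 27025 genes and 12.9% of those of 17491 protein-coding genes. The YY1 letters AAGATGGC were found in 12 (17.6%), against 3.19% and 3.57%. The NRF1 letters GCATGCGC occurred in 8 (11.8%), against 3.05% and 3.93%. Their opening letters GCATGC read alike on both strands, so the 2 strands can match at overlapping places. At least 1 of the 3 words stood in 37 member promoters (54.4%), against 14.9% of all and 18.7% of protein-coding promoters. The median GC content was 58% in member promoters and 56.3% in protein-coding ones. A match is only a match of letters, and binding was not measured. The windows below, from 150 bases before to 30 bases after the start on the gene's strand, show the 4 members that held at least 2 matches and whose signals were higher on both high-fat arrays than on both low-fat arrays in each water. Capitals mark the ETS and NRF1 letters on either strand. The windows lie at chr11:58171514-58171693 for Mrpl22, chr5:31613801-31613980 for Mrpl33, chr14:54426759-54426938 for Mrpl52 and chr11:115403602-115403781 for Mrpl58, all on the plus strand of GRCm38.p6.
Mrpl22: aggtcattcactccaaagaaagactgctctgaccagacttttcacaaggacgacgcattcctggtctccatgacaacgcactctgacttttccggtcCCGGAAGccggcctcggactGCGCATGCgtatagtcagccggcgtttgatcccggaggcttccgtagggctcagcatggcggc
Mrpl33: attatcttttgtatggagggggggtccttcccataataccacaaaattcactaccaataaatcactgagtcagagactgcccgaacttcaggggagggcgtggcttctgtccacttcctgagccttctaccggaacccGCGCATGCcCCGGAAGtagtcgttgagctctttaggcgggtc
Mrpl52: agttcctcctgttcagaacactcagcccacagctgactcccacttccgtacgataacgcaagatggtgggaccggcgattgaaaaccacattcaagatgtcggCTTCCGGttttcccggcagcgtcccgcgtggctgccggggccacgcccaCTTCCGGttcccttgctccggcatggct
Mrpl58: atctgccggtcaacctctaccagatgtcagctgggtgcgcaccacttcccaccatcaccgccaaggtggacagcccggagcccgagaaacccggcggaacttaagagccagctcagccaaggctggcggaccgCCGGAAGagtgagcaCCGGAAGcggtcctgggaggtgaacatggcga

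The values are log2 signals, so a difference of 1 is a change of 2-fold. The 8-array mean signal was 10.98 for Mrpl40, 10.94 for Mrpl50 and 10.90 for Mrpl10, at the bright end, and 6.04 and 6.20 for the Mrps36 clusters and 6.71 for one Mrpl47 cluster at the dim end. Because clusters differ in their probes, signals were compared only within a cluster. Hepatocyte markers such as Alb had medians of 13.97 to 14.14 on all 8 arrays, as the liver label states. For each array, the deviation of every member from its own 8-array mean was taken. The median over the 86 members was 0.15 and 0.12 on the HFD+As arrays, 0.03 and 0.12 on the HFD arrays, -0.08 and -0.10 on the LFD+As arrays, and -0.00 and -0.24 on the LFD arrays. All 4 high-fat arrays therefore lay above all 4 low-fat arrays. One array stood apart: LFD replicate 2 was the lowest of the 8 for 60 of the 86 members, while it was lowest for 14.8% of all clusters. LFD replicate 1 was lowest for 1 member. HFD+As replicate 1 was the highest array for 37 members and replicate 2 for 18, while these arrays were highest for 17.7% and 11.6% of all clusters. Against LFD, the medians of the members and of the lists of related genes are therefore also given without LFD replicate 2, an alternative that for the gene lists was added after seeing the data.

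**Figure D1:**
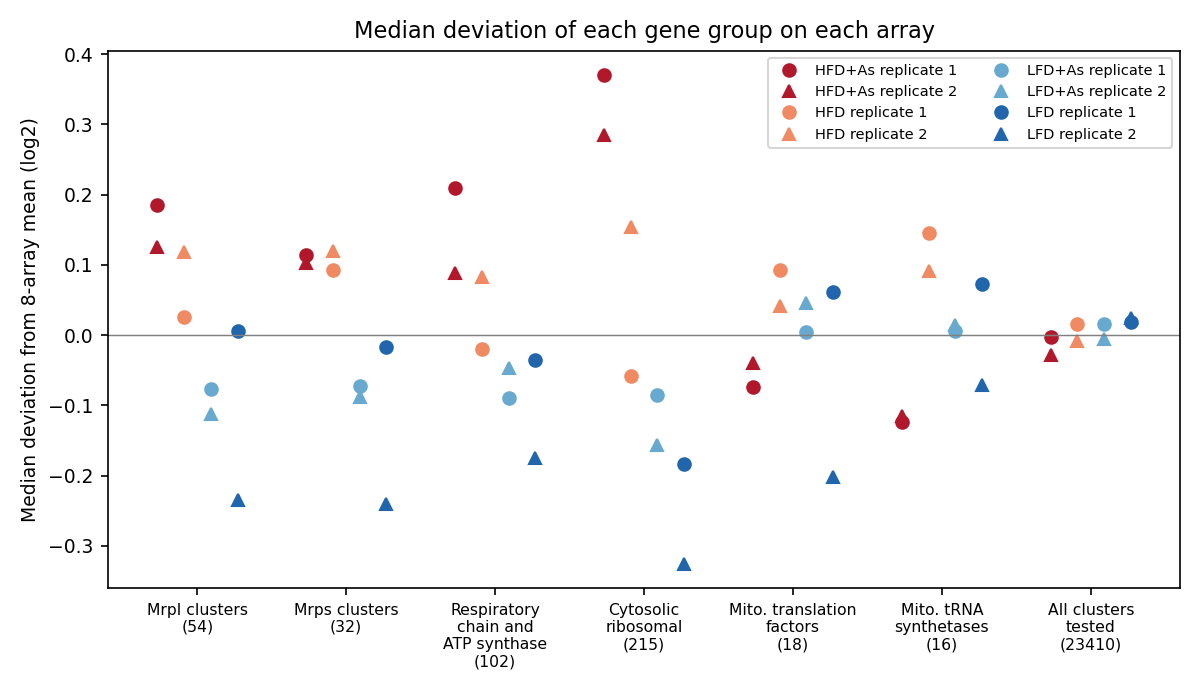
Median deviation (log2) from the 8-array mean on each array for 7 sets of clusters, with the number of clusters in brackets; colours are groups, circles replicate 1 and triangles replicate 2. For Mrpl clusters the high-fat arrays lie above the low-fat ones, and LFD replicate 2 lies lowest for both subunits. The translation factors and tRNA synthetases lie below 0 on both HFD+As arrays and on LFD replicate 2, which is the lowest array for the translation factors (-0.20).

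Livers of mice given both the high-fat diet and arsenite, compared with LFD livers, had higher signals for most mitochondrial ribosomal genes. The difference was positive for 74 of 86 clusters, with a median of 0.22 and quartiles of 0.11 and 0.42, while the median over all clusters tested was -0.03. Past an adjusted p of 0.05, 9 of the 86 rose and 0 fell, against 4.57% of all clusters in either direction and 1.94% of all clusters called higher. Of the 9, 7 were among the 54 Mrpl clusters and 2 among the 32 Mrps clusters. At an unadjusted p of 0.05, 38 members were higher and 1 lower, while 20.6% of all clusters passed in either direction. Both HFD+As arrays lay above both LFD arrays for 49 members (16.3% of all clusters) and below them for 2 (29.1%). The median was 0.24 for Mrpl and 0.20 for Mrps. Without LFD replicate 2 the median was 0.12 with 62 of 86 positive, without LFD replicate 1 it was 0.33, and in either case 0 members were called. Against LFD replicate 1 alone, the Mrpl median was 0.15 and the Mrps median 0.08, and the 9 differences ran from 0.44 to 0.74 with adjusted p between 0.0818 and 0.133. The 9 calls were likewise lost without either HFD+As pool, without either LFD+As pool, and when clusters without a symbol were fitted too, where the lowest adjusted p of the 9 was 0.0972.

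**Figure D2:**
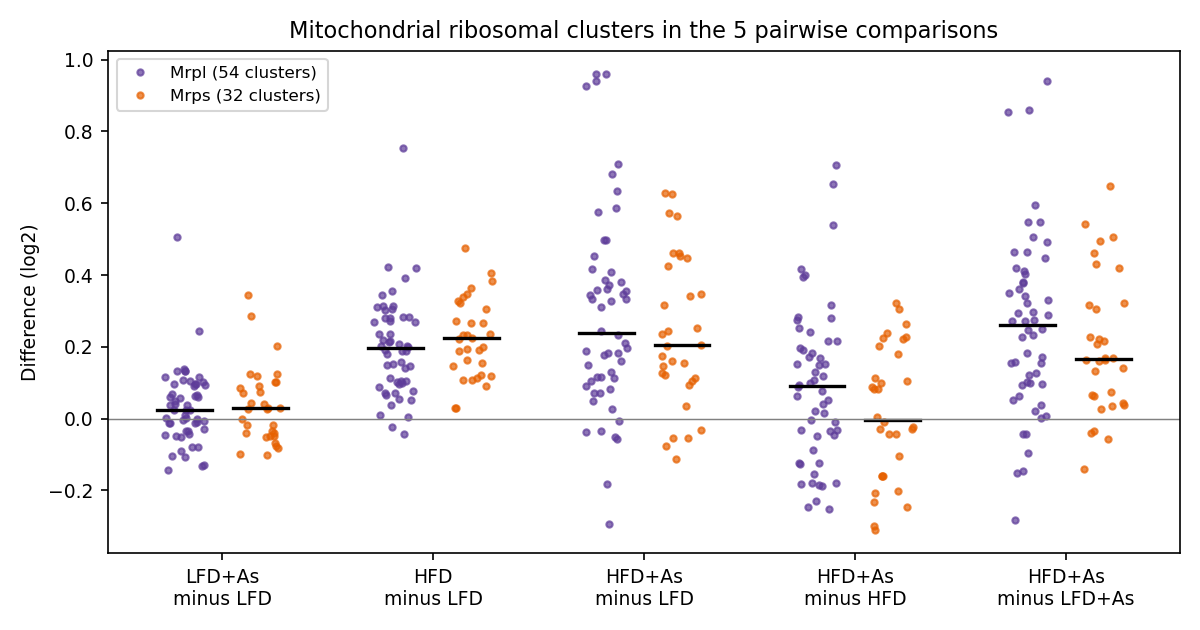
Each point is the log2 difference of 1 cluster between the group means named under the axis, for 54 Mrpl and 32 Mrps clusters, with a black bar at each median. Medians lie near 0 for LFD+As minus LFD and near 0.2 for HFD minus LFD, HFD+As minus LFD and HFD+As minus LFD+As.

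Mrpl54, a large subunit protein with no bacterial counterpart, lies at chr10:81264722-81266926. Its signals were 9.93 and 9.85 in HFD+As, 9.24 and 9.47 in HFD, 9.10 and 8.96 in LFD+As, and 9.18 and 8.68 in LFD. The HFD+As arrays stood above the other 6 without overlap. The rise over LFD was 0.96 (SE 0.17, adjusted p 0.0306), or 1.95-fold. Mrpl20 (chr4:155802878-155808831), the counterpart of a bacterial protein needed for large subunit assembly, had 9.26 and 9.23 in HFD+As, 8.27 and 8.80 in HFD, 8.35 and 8.25 in LFD+As, and 8.50 and 8.10 in LFD. The HFD and LFD arrays overlapped, and only the HFD+As pair stood clear. The rise over LFD was 0.94 (SE 0.18, adjusted p 0.0333).

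Mrpl42 (chr10:95480805-95501949), another protein without a bacterial counterpart, had 8.81 and 8.83 in HFD+As, 8.54 and 8.76 in HFD, 8.40 and 8.40 in LFD+As, and 8.28 and 7.52 in LFD. The 4 groups did not overlap, but the spread within LFD was wider than any difference among the other 3 groups. The rise over LFD was 0.93 (SE 0.21, adjusted p 0.0432), and it was 0.54 without LFD replicate 2. Mrpl33 (chr5:31613951-31622644), whose promoter is printed above, had 7.72 and 7.56 in HFD+As, 7.17 and 7.32 in HFD, 7.20 and 7.15 in LFD+As, and 7.04 and 6.82 in LFD. It is a small protein with a bacterial homologue. Its HFD+As arrays lay above all others, with a rise over LFD of 0.71 (SE 0.12, adjusted p 0.0309).

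Mrpl30 (chr1:37890477-37898338) had 10.66 and 10.66 in HFD+As, 10.12 and 10.40 in HFD, 10.16 and 10.06 in LFD+As, and 10.05 and 9.90 in LFD. The HFD+As pools gave nearly the same value, and the rise over LFD was 0.68 (SE 0.13, adjusted p 0.0321). Mrpl14 (chr17:45685722-45698495), a conserved protein at the interface between the subunits, had 9.73 and 9.61 in HFD+As, 9.17 and 9.33 in HFD, 9.04 and 9.11 in LFD+As, and 9.19 and 8.87 in LFD. Only the HFD+As arrays stood apart, and the rise over LFD was 0.64 (SE 0.13, adjusted p 0.0371). Mrpl24 (chr3:87918131-87923450), the homologue of a bacterial protein that acts early in large subunit assembly, rose over LFD by 0.59 (SE 0.13, adjusted p 0.0372). Its signals were 10.22 and 10.09 in HFD+As, 9.84 and 9.91 in HFD, 9.74 and 9.59 in LFD+As, and 9.69 and 9.44 in LFD.

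The small subunit gave 2 calls. Mrps18c (chr5:100798759-100804467) is one of 3 mammalian versions of a single bacterial protein and had 10.30 and 10.27 in HFD+As, 9.95 and 10.18 in HFD, 9.82 and 9.67 in LFD+As, and 9.85 and 9.47 in LFD. Its rise over LFD was 0.63 (SE 0.15, adjusted p 0.0468), or 0.44 without LFD replicate 2. Mrps24 (chr11:5703982-5707701) had 10.23 and 10.02 in HFD+As, 9.75 and 9.89 in HFD, 9.46 and 9.50 in LFD+As, and 9.60 and 9.51 in LFD. The arsenite arrays on the low-fat diet lay below the LFD arrays here, and the rise of HFD+As over LFD was 0.57 (SE 0.12, adjusted p 0.0366). The coordinates are the GRCm38.p6 gene spans of RefSeq, introns included.

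**Figure D3:**
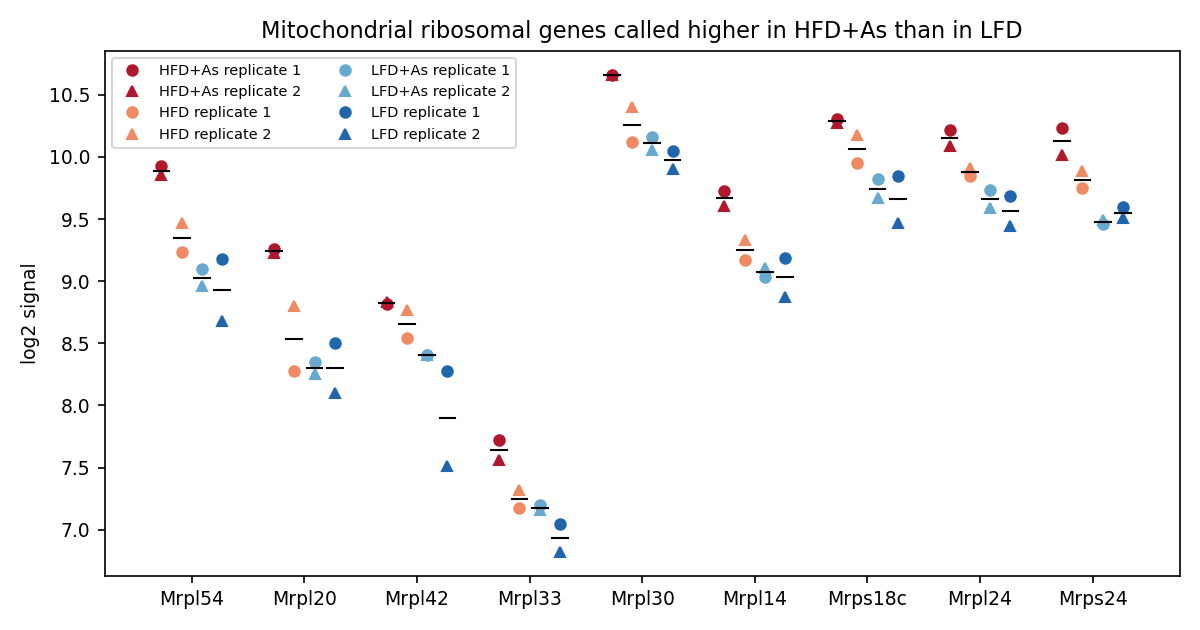
log2 signal on each array for the 9 genes that passed an adjusted p of 0.05 in HFD+As against LFD, ordered by the size of the difference; circles are replicate 1, triangles replicate 2 and bars group means. The 2 HFD+As arrays lie above both LFD arrays for each gene, and LFD replicate 2 is the lowest LFD point in each.

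Just beyond the threshold were Mrps21 with a difference of 0.63 (adjusted p 0.0512), Mrpl18 with 0.50 (0.0538) and Mrpl52 with 0.96 (SE 0.24, adjusted p 0.0551). Mrpl52 had 10.49 and 9.65 in HFD+As and 9.29 and 8.92 in LFD, so its pools differed within HFD+As by nearly as much as the groups did. The lowest difference belonged to Mrpl49, with 9.98 and 10.13 in HFD+As and 10.40 and 10.30 in LFD, a difference of -0.29 (SE 0.11, adjusted p 0.174). Promoter letters were set beside the size of the difference as a description. The median was 0.33 over 28 clusters whose promoter held the ETS letters and 0.19 over 48 whose promoter did not. For YY1 it was 0.25 over 12 clusters with the letters and 0.22 over 64 without. For NRF1 it was 0.19 over 8 clusters with the letters and 0.24 over 68 without. In HFD against LFD the medians with and without the ETS letters lay closer, at 0.224 and 0.192. In HFD+As against LFD+As they were 0.324 and 0.165.

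The high-fat diet alone was set against LFD. The difference was positive for 84 of 86 members, including all 32 Mrps clusters, with a median of 0.20, while the median over all clusters was -0.02. None passed the adjusted threshold in the limma fit (0 of 86, against 0.0% of all clusters). At an unadjusted p of 0.05, 16 members were higher and 0 lower, while 7.71% of all clusters passed in either direction. Both HFD arrays lay above both LFD arrays for 50 members (17.2% of all clusters) and below them for 0 (19.2%). The median was 0.20 for Mrpl and 0.22 for Mrps. The median rests on the LFD pools: it was 0.08 without LFD replicate 2, with 68 of 86 positive, and 0.32 without LFD replicate 1.

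The smallest unadjusted p-values in that comparison belonged to Mrpl42, with a difference of 0.75 (adjusted p 0.488), Mrps22 and Mrpl2. Mrps22, a small subunit protein without a bacterial counterpart, had 9.77 and 10.11 in HFD and 9.58 and 9.36 in LFD, a difference of 0.47 (SE 0.14, adjusted p 0.510). Mrpl2, a conserved protein near the peptidyl transferase centre, had 9.13 and 9.09 in HFD and 8.83 and 8.55 in LFD, a difference of 0.42 (SE 0.13, adjusted p 0.536). In HFD+As, Mrpl2 had 8.99 and 8.77, which overlapped LFD.

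The diet was also compared among mice that all drank arsenite, in arrays separate from those of HFD against LFD. In HFD+As against LFD+As the difference was positive for 76 of 86 members, with a median of 0.22 beside -0.01 over all clusters. None passed the adjusted threshold (0 of 86, against 0.0% of all clusters). At an unadjusted p of 0.05, 32 members were higher and 1 lower, while 18.4% of all clusters passed. Both HFD+As arrays lay above both LFD+As arrays for 59 members (21.2% of all clusters) and below for 4 (29.4%). The median was 0.26 for Mrpl and 0.17 for Mrps. Mrps24 with 0.65, Mrpl54 with 0.86 and Mrpl20 with 0.94 had the smallest p-values, each with an adjusted p of 0.0796. The median is free of the LFD arrays. Restricting the fit to the brightest 60% of genes, with 1 cluster per gene, gave 15 calls, all higher, among the 76 members left (19.7%), against 1.82% of the clusters in that fit called higher and 10.3% called in either direction. The other alternatives fitted to all 8 arrays gave 0 member calls here.

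Because these diet comparisons share no array, their members can be set side by side. Both were positive for 75 of 86 members (87.2%), while this held for 21.8% of all clusters. High-fat arrays lay above low-fat arrays without overlap in both waters for 35 members (40.7%), against 6.62% of all clusters. The 35 comprised 22 of 54 Mrpl and 13 of 32 Mrps clusters, or 40.7% and 40.6%. Of the 9 named rises over LFD, 7 were among them. Mrpl20 and Mrpl14 were the exceptions, since their HFD and LFD arrays overlapped. The 9 were picked on the HFD+As and LFD arrays, which these comparisons use again, so their share here is favoured by that choice. Across the 86 members the sizes in the 2 waters had a Pearson correlation of 0.38 and a Spearman correlation of 0.35, against 0.19 and 0.10 over all 23410 clusters. Members are not independent replicates, and all points share the same 8 arrays.

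**Figure D4:**
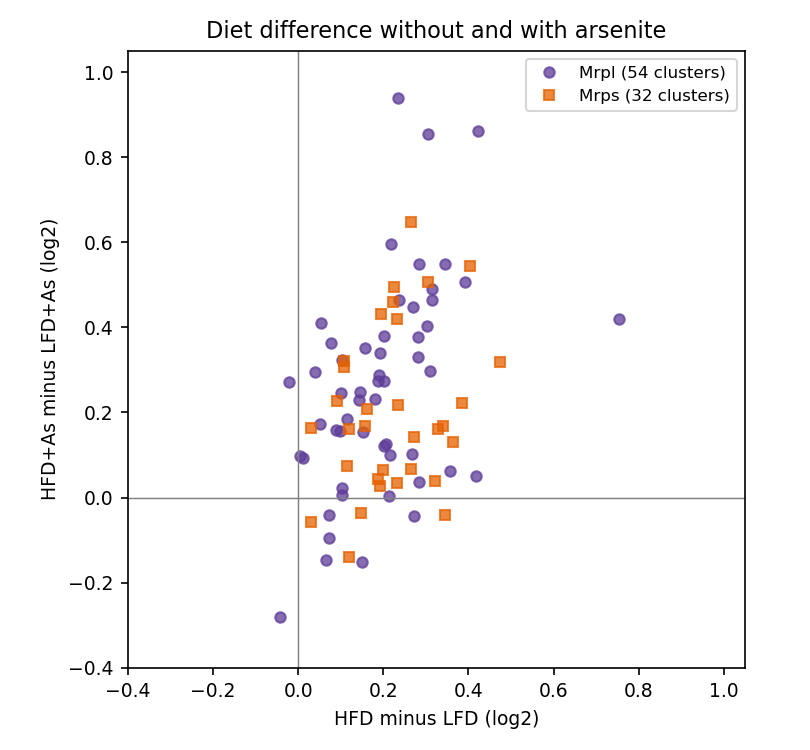
Each point is 1 cluster, with the log2 difference HFD minus LFD on the horizontal axis and HFD+As minus LFD+As on the vertical axis; circles are Mrpl and squares Mrps. Most points (75 of 86) lie right of and above 0.

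Of the 4 members whose promoters are printed above, Mrpl33 has been described. They were picked by these signals, so the 3 others are given without a test. Mrpl22, whose protein lines the exit tunnel, had 9.07 and 8.63 in HFD+As, 8.66 and 8.73 in HFD, 8.28 and 8.32 in LFD+As, and 8.62 and 8.08 in LFD. Mrpl58, which releases stalled chains from the ribosome, had 9.44 and 9.27 in HFD+As, 9.13 and 9.15 in HFD, 8.94 and 8.84 in LFD+As, and 9.07 and 8.73 in LFD. Mrpl52 had 10.49 and 9.65 in HFD+As, 9.32 and 9.50 in HFD, 9.23 and 9.19 in LFD+As, and 9.29 and 8.92 in LFD. In all 3, the higher LFD pool lay close below the lower HFD pool.

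On the low-fat diet, arsenite went with differences in both directions. In LFD+As against LFD the difference was positive for 50 of 86 members, with a median of 0.03 beside -0.01 over all clusters. None passed the adjusted threshold (0 of 86, against 0.0% of all clusters), and at an unadjusted p of 0.05 there were 2 higher and 0 lower, while 2.38% of all clusters passed. Both LFD+As arrays lay above both LFD arrays for 11 members (11.2% of all clusters) and below for 5 (15.9%). The sign of the median depended on one pool: it was -0.09 without LFD replicate 2 and 0.15 without LFD replicate 1. The smallest p-values belonged to a Mrps36 cluster with 0.34, Mrpl42 with 0.51 and Mrpl33 with 0.24, each with an adjusted p of 0.9999 or above.

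On the high-fat diet, too, the arsenite differences lay on both sides of 0. In HFD+As against HFD, 50 of 86 differences were positive and the median was 0.08, beside -0.02 over all clusters. None passed the adjusted threshold (0 of 86, against 0.0% of all clusters). At an unadjusted p of 0.05, 10 members were higher and 0 lower, while 19.0% of all clusters passed. HFD+As arrays lay above HFD arrays without overlap for 32 members (22.6% of all clusters) and below for 21 (29.5%). The median was 0.09 for Mrpl and -0.00 for Mrps. The median was 0.03 without HFD replicate 1. After quantile normalization it was 0.17, with 65 of 86 positive and 27 past an unadjusted p of 0.05. The smallest p-values belonged to Mrpl20 with 0.71 (adjusted p 0.163), Mrpl54 with 0.54 (0.175) and Mrpl33 with 0.39 (0.177). The 9 genes called against LFD all lay above HFD without overlap, at 0.17 to 0.71. They were picked for high signals on these same HFD+As arrays, so this is no separate evidence of an arsenite difference. Differences at the low end were -0.31 for one Mrps5 cluster, -0.30 for Mrps30 and -0.25 for Mrpl49, none of which passed.

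The interaction is the arsenite difference on the high-fat diet minus that on the low-fat diet. It was positive for 50 of 86 members, with a median of 0.06 beside 0.00 over all clusters. None passed the adjusted threshold (0 of 86, against 0.0% of all clusters), and at an unadjusted p of 0.05 there were 3 higher and 0 lower, while 9.01% of all clusters passed. Mrpl20 with 0.71 (SE 0.26), Mrpl17 with 0.36 (SE 0.15) and Mrps24 with 0.38 (SE 0.17) had the smallest p-values, with adjusted p between 0.552 and 0.553. The interaction was positive for 36 of 54 Mrpl and 14 of 32 Mrps clusters. The sign of its median turned with one pool: it was -0.07 without LFD replicate 1, with 33 of 86 positive, and 0.17 without LFD replicate 2, with 62 of 86 positive. Without HFD replicate 1 it was -0.00, and after quantile normalization it was 0.19, with 63 of 86 positive.

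A further 8 genes with special roles were followed in all comparisons. Mrpl12, a stalk protein that also binds the mitochondrial RNA polymerase, had 10.63 and 10.80 in HFD+As, 10.34 and 10.60 in HFD, 10.42 and 10.36 in LFD+As, and 10.38 and 10.35 in LFD. It stood 0.35 above LFD (SE 0.12, adjusted p 0.150). Mrps18c passed the test, as given above; its 2 relatives did not pass. Mrps18a had 9.64 and 9.62 in HFD+As and 9.53 and 9.22 in LFD, a difference of 0.25 (SE 0.12, adjusted p 0.302), or 0.10 without LFD replicate 2. Mrps18b had 10.56 and 10.53 in HFD+As and 10.41 and 10.33 in LFD, a difference of 0.17 (SE 0.11, adjusted p 0.434). These pools did not overlap for any of the 3 genes, and the differences between the 3 genes were not tested.

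Mrps12, the counterpart of a bacterial protein of the decoding centre, had 7.78 and 7.57 in HFD+As, 7.60 and 7.53 in HFD, 7.47 and 7.44 in LFD+As, and 7.30 and 7.36 in LFD. The groups' order was HFD+As, HFD, LFD+As and LFD by mean, with overlap between the high-fat groups. Its difference from LFD was 0.34 in HFD+As (SE 0.11, adjusted p 0.122). Mrps30 had 7.69 and 7.86 in HFD+As, 8.10 and 8.05 in HFD, 7.61 and 7.81 in LFD+As, and 7.96 and 7.66 in LFD, so the HFD pair alone was high and the HFD+As difference from LFD was -0.03 (SE 0.14, adjusted p 0.934), or -0.18 without LFD replicate 2.

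Mrps36 has 2 clusters, and LFD replicate 2 was lowest on both. The dimmer one had 6.37 and 6.19 in HFD+As, 6.16 and 6.03 in HFD, 6.02 and 6.09 in LFD+As, and 5.90 and 5.53 in LFD. It stood 0.57 above LFD in HFD+As (SE 0.14, adjusted p 0.0564), and the second cluster stood 0.45 above LFD (SE 0.15, adjusted p 0.120). Without LFD replicate 2 these were 0.38 and 0.25. Mrpl41, a protein also described as a regulator of apoptosis, showed how far clusters of one gene can part. One cluster had 8.41 and 8.06 in HFD+As against 7.93 and 7.71 in LFD, a difference of 0.42 (SE 0.15, adjusted p 0.139), and the other had 7.55 and 7.36 in HFD+As against 7.31 and 7.33 in LFD, a difference of 0.13 (SE 0.12, adjusted p 0.630). Over the 8 genes with 2 clusters, the clusters had the same sign in 6 for HFD+As against LFD and parted by a median of 0.09, with 0.29 at most. Which cluster reads the gene better is unknown, since the table holds no detection calls.

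Genes that work with the mitoribosome were taken as lists. In HFD+As against LFD, 4.57% of all clusters tested were called in either direction. When clusters without a symbol were fitted too, 0 of 35556 were called, so the calls in these lists were lost as well. Among 4 clusters of mitoribosomal proteins with other symbols, Chchd1, a small subunit protein without a bacterial counterpart, was called higher in HFD+As than in LFD. It had 9.31 and 9.32 against 8.74 and 8.24, a rise of 0.83 (SE 0.19, adjusted p 0.0457). Its value on LFD replicate 2 (8.24) was the lowest of the 8 arrays, so the rise rests in part on that pool. The other 3 were Dap3, Ptcd3 and Gadd45gip1, and the median of the 4 was 0.05, or -0.00 without LFD replicate 2. Of 25 clusters of assembly factors, 16 were positive with a median of 0.09 and 0 were called, while 12 were positive with a median of -0.01 without LFD replicate 2. The smallest p-values were those of Malsu1, which keeps the maturing large subunit from joining the small one too early, with 0.57 (adjusted p 0.0511), and of the GTPase gene Mtg1 with 0.57 (adjusted p 0.0955).

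Medians, not corrected for gene span, were lower for the translation machinery outside the ribosome. Of 18 clusters of mitochondrial translation factors, 7 were positive in HFD+As against LFD with a median of -0.03, and 0 were called. Without LFD replicate 2, 1 was positive and the median was -0.14. Against HFD, 1 of 18 was positive and the median was -0.16. Lrpprc, which stabilises mitochondrial messenger RNAs, had 10.18 and 10.37 in HFD+As and 10.62 and 10.80 in HFD, a difference of -0.43 (SE 0.12, adjusted p 0.168). Of 16 clusters of mitochondrial aminoacyl-tRNA synthetases, 5 were positive against LFD with a median of -0.14 (-0.22 without LFD replicate 2), and 1 was positive against HFD with a median of -0.22. None was called, and Fars2, which charges the phenylalanine tRNA, differed from HFD by -0.36 (SE 0.12, adjusted p 0.181). Against LFD, the HFD medians were 0.16 for translation factors and 0.08 for synthetases, with 15 of 18 and 13 of 16 positive, and without LFD replicate 2 they were 0.04 and 0.01, with 12 and 8 positive.

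Factors of mitochondrial transcription and RNA processing were mixed, with 7 of 11 positive in HFD+As against LFD, a median of 0.03 and 0 called. Without LFD replicate 2, 4 were positive and the median was -0.10. Hsd17b10, a subunit of mitochondrial RNase P, had 12.75 and 12.94 in HFD+As, 12.31 and 12.13 in HFD, 12.81 and 12.43 in LFD+As, and 12.21 and 12.26 in LFD. Its arsenite arrays were the highest on either diet, and HFD+As stood 0.61 above LFD (SE 0.15, adjusted p 0.0512). Among 11 regulators of nuclear genes for mitochondria, 2 were positive with a median of -0.29 (-0.40 without LFD replicate 2), and 1 was called lower. This was Ppargc1a, a coactivator of mitochondrial biogenesis, with 8.08 and 8.02 in HFD+As, 8.59 and 8.66 in HFD, 8.50 and 8.98 in LFD+As, and 9.11 and 8.70 in LFD. It fell by 0.85 in HFD+As relative to LFD (SE 0.18, adjusted p 0.0371). Gabpb1, a subunit of the ETS factor GABP, differed by -0.36 between HFD+As and HFD (SE 0.12, adjusted p 0.185).

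Partner complexes had positive medians, also not corrected for gene span. Nuclear-encoded subunits of the respiratory chain and ATP synthase, which are assembled with the products of the mitoribosome, had 84 of 102 clusters positive in HFD+As against LFD and a median of 0.28, or 81 and 0.21 without LFD replicate 2. Of them 15 were called higher and 1 lower, while 1.94% of all clusters were called higher and 4.57% in either direction. Atp5l, an ATP synthase subunit with several clusters, showed a rise of 0.92 on one of them (SE 0.16, adjusted p 0.0306). Cytosolic ribosomal proteins had 215 of 215 clusters positive, a median of 0.58 and 122 called higher. Without LFD replicate 2 their median was 0.52 with 214 positive. All calls in both lists were lost when clusters without a symbol were fitted too (0 of 35556 called). Rps14 rose by 1.17 (SE 0.17, adjusted p 0.0302) and Rpl5 by 0.98 (SE 0.14, adjusted p 0.0302). Several clusters can stand for 1 such gene or for its near-identical copies, so the 215 are not separate genes. In LFD+As against LFD their median was 0.12 (0.05 without LFD replicate 2), in HFD against LFD 0.27 (0.21 without it) and in HFD+As against HFD 0.26.

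Mitochondrial ribosomal genes are short. Their median genomic span was 8124 bases, from 828 to 121712, and 71.8% were under 10000 bases, while all clusters with a span had a median of 18686 bases and 34.4% under 10000. The deviations on an array followed span across all 21695 such clusters to a degree that differed between arrays. The Spearman correlation was -0.35 and -0.27 on the HFD+As arrays, 0.26 and -0.09 on the HFD arrays, 0.16 and 0.22 on the LFD+As arrays, and 0.30 and -0.00 on the LFD arrays. On the HFD+As arrays, shorter genes thus read higher across the whole array. In the fourth span decile, which held 23 members, their median for HFD+As minus LFD was 0.38, while that of all clusters in the decile was -0.01. This was the highest member median of any decile. In deciles 1, 2, 3 and 5, with 4, 19, 19 and 9 members, it was 0.11, 0.23, 0.17 and 0.18, against 0.09, 0.03, 0.00 and -0.03 over all clusters. From the sixth to the ninth decile, which held 11 members in all, it ran from -0.05 (1 member) to 0.27 (4 members), against -0.14 to -0.07 over all clusters. With the trend on span removed from each array, the member medians were 0.25 for HFD+As minus LFD, 0.20 for HFD minus LFD and 0.21 for HFD+As minus LFD+As, and 12 members were called, among them the 9 named above (14.1% of the 85 members with a span, against 1.59% of all clusters in that fit called higher and 3.15% called in either direction). Among the members themselves, span and the HFD+As difference from LFD had a Spearman correlation of -0.06.

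**Figure D5:**
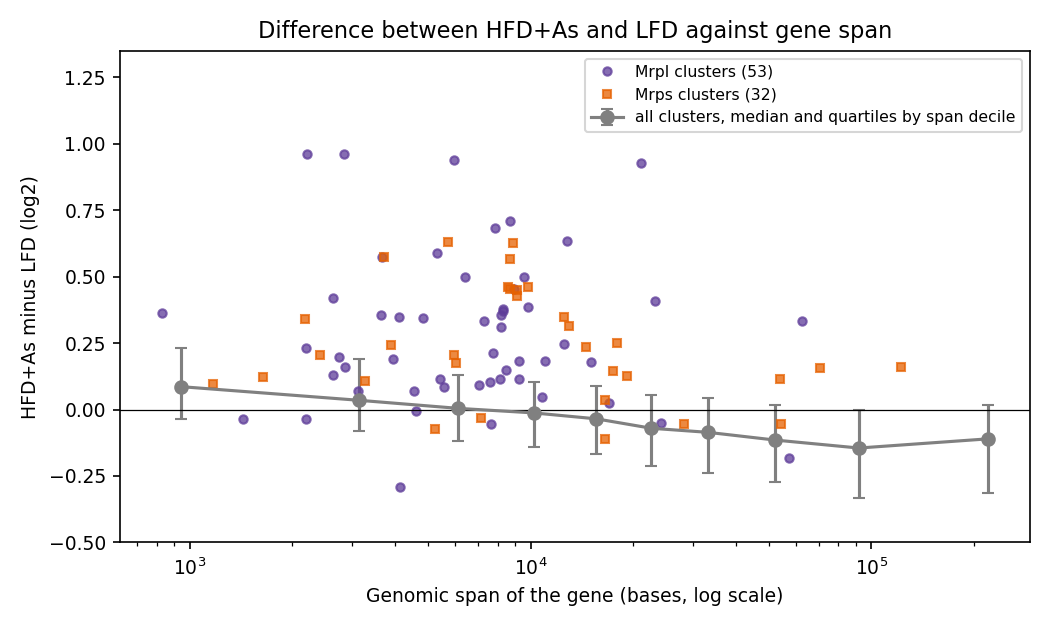
Log2 difference HFD+As minus LFD against genomic span in bases (log axis) for 53 Mrpl and 32 Mrps clusters; grey points and whiskers give the median and quartiles of all clusters in each span decile. The grey line falls up to the ninth decile, at -0.14, and lies at -0.11 in the tenth, and most members lie above it.

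Markers of other liver cell types moved as well. In bulk tissue, fewer cells of a type and less RNA per cell cannot be told apart. The marker signals were not corrected for span, and the part of the span trend in them was not tested. In HFD+As against LFD, 6 of 7 macrophage clusters were lower with a median of -0.26, although Marco was called higher. Of 5 stellate clusters, 4 were lower with a median of -0.28. Of 5 sinusoidal endothelial clusters, 4 were lower with a median of -0.32 and 2 called, while 4.57% of all clusters were called. Clec4g has 2 of these clusters. The brighter had 11.96 and 11.57 in HFD+As against 11.6 and 11.5 in LFD, and the dimmer 6.35 and 6.39 against 6.74 and 6.65. Summed endothelial signal, as log2, was 12.38 and 12.09 in HFD+As against 12.33 and 12.20 in LFD. Neutrophil clusters were higher in 3 of 4, with a median of 0.56 (0.71 without LFD replicate 2), and S100a8 and S100a9 were called. The log2 of the summed macrophage signal was 12.68 and 12.37 in HFD+As, 13.06 and 12.93 in HFD, 12.51 and 12.84 in LFD+As, and 12.81 and 12.80 in LFD. Summed neutrophil signal was 8.96 and 8.86 in HFD+As, 8.48 and 8.72 in HFD, 8.39 and 8.32 in LFD+As, and 8.18 and 8.44 in LFD. No marker was listed at 0, and the table does not show whether a dim signal is above background. The part of these cells in the member differences was not tested.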

How the data were processed

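Pooled liver RNA was hybridised to 8 Affymetrix Mouse Gene 1.0 ST arrays. The authors deposited a log2 signal for each transcript cluster, and the submitters' processing notes name Affymetrix Expression Console 1.0; background correction and normalization are not given in the sources used here. The number of arrays limits the precision (median standard error of a difference 0.131). Platform symbols named the clusters. One limma 3.58.1 fit (R 4.3.3) of 4 group means to the 23410 clusters with a symbol gave all tests, with 4 residual and 5.29 prior degrees of freedom and Benjamini-Hochberg adjustment within each comparison at 0.05. On simulated data for HFD+As against LFD (23410 clusters) it recovered 77% of changes of 1 and 96% of changes of 2 on the log2 scale, with 8 false calls. The simulated noise was independent between clusters, without the trends shared across an array that the real data hold. These shares therefore do not measure how the fit behaves under such trends. The highest member difference in HFD+As against LFD was 0.96, and recovery of changes smaller than 1 was not simulated. Named members were those called (up to 12 per direction) or else the 3 smallest p-values, plus 8 fixed genes and the members just outside the threshold or at the low end, chosen after their values were seen. The members and lists were chosen with earlier results of these data known. Promoter letters and spans came from RefSeq GRCm38.p6. Alternatives changed the clusters fitted, the span trend, the variance prior, the normalization, the replicate block and single arrays.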

Additional observations from a re-analysis of the deposited data

Results flagged for a closer look

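In 2 members the arsenite arrays lay below the plain-water arrays without overlap on the low-fat diet and above them without overlap on the high-fat diet. Over all clusters, 15.9% lay below on the low-fat diet and 22.6% above on the high-fat diet. The share of all clusters with both was not counted. The low-fat gaps were narrow, with the nearest pools at 9.50 and 9.51 for Mrps24 and at 9.11 and 9.12 for Mrpl17. Mrps24 differed by 0.31 between HFD+As and HFD and by -0.07 between LFD+As and LFD, an interaction of 0.38 (SE 0.17, limma adjusted p 0.553). Mrpl17 differed by 0.28 between HFD+As and HFD and by -0.08 between LFD+As and LFD, an interaction of 0.36 (SE 0.15, limma adjusted p 0.552). Mrpl17 had 9.52 and 9.43 in HFD+As, 9.14 and 9.25 in HFD, 9.11 and 9.01 in LFD+As, and 9.12 and 9.16 in LFD. Neither interaction passed the threshold.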

How the results depend on the processing

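The number of members called in HFD+As against LFD was 9 and became 0 when all 35556 clusters were fitted (0 of 35556 called, 6186 at an unadjusted p under 0.05), 19 with the brightest 60% of genes, 14 with an intensity trend in the variance prior, 17 after quantile normalization and 14 with the replicate number as a block. Leaving out 1 array in turn gave 0 to 9, with 9 only when an HFD array was left out; leaving out an LFD+As array changes no value of these genes, only the pooled spread. The 9 named genes stayed positive under all of these, with adjusted p between 0.00394 and 0.226. Removing the span trend gave 12. The brightest 60% also gave 1 call of 76 in HFD+As against HFD, while 3.63% of all clusters in that fit were called, and 15 in HFD+As against LFD+As. In both comparisons the main fit and the other alternatives on all 8 arrays gave 0 member calls. Over all clusters, HFD+As set against LFD gave 453 higher and 618 lower calls (4.57%), 430 and 1479 with the brightest 60% (16.0%), 346 and 337 without the span trend (3.15%), 619 and 826 with the intensity trend (6.17%), 569 and 583 after quantile normalization (4.92%) and 711 and 888 with the block (6.83%). Member medians without 1 array ran from -0.0887 to 0.147 for LFD+As against LFD, 0.0775 to 0.319 for HFD against LFD, 0.12 to 0.33 for HFD+As against LFD, 0.03 to 0.10 for HFD+As against HFD, 0.19 to 0.27 for HFD+As against LFD+As and -0.0663 to 0.17 for the interaction; the low and high ends for LFD come from leaving out its replicates. Quantile normalization moved the median to 0.17 for HFD+As against HFD and 0.19 for the interaction, and the cause was not tested. Same-numbered arrays had correlations of deviations between 0.04 and 0.51, and with 2 numbers per group the numbers are not taken as pairs. Of the values for named members, 959 counted as unchanged and 100 as moved, while 63 lost and 8 gained the call. Small differences could change sign. In LFD+As against LFD, Mrps18a differed by 0.04, but LFD replicate 1 alone (9.53) lay above both LFD+As arrays (9.44 and 9.41). With 2 pools per group, the smallest member difference called was 0.57.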
